A study of Mus musculus with 8 samples.

Results

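Hox genes and the transcription factors that pattern the heart and the outflow tract mark where along the body a vessel wall cell came from, and their transcripts were described across the cell types of the aged mouse ascending thoracic aorta. The members were chosen by symbol alone, as the 39 Hox genes of the annotation together with Gata4, Gata5, Gata6, Hand1, Hand2, Tbx1, Tbx2, Tbx3, Tbx5, Tbx18, Tbx20, Nkx2-5, Isl1, Foxc1 and Foxc2. They made up 54 of the 32285 genes measured. Single cells came from the ascending aortas of 3 wildtype mice, with 1 animal each at 81, 84 and 88 weeks of age. Hashtag antibodies, barcoded antibodies that tag the cells of an animal before pooling, marked the animals in 1 pool that was read as 4 gene expression and 4 hashtag libraries. All cells shared genotype, tissue and pool, and each age is a single animal, so that cell types are compared here and ages are not. Strain and sex are not given in the sources used here.

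Hox genes encode homeodomain proteins and stand in 4 clusters, HoxA to HoxD, in which the gene order follows the order of their domains along the embryo's body axis. Low-numbered paralogs such as Hoxa2 and Hoxb3 act far forward, around the hindbrain and pharyngeal arches, and high-numbered ones further back. The smooth muscle of the ascending aorta is known to descend from cardiac neural crest and from the second heart field. Isl1, Tbx1, Nkx2-5, Hand2 and the Gata factors act in the second heart field and outflow tract, Tbx18 marks the proepicardium and epicardium, and Foxc1 and Foxc2 act in the arch arteries and in lymphatic development.

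The 26916 barcodes held 142108011 UMIs of genes (unique molecular identifiers, each counting a captured mRNA molecule), with a median of 2975 and a range of 900 to 104654 per barcode. After filtering, 9186 cells fell into 10 named types and 898 into 6 clusters without a name. Cell types were rebuilt here from marker genes with all 54 members left out of the clustering, so names and sizes can differ from the study's own. They comprised 4732 smooth muscle-like, 1250 fibroblast-like, 957 endothelial-like, 1836 T cell-like, 127 macrophage-like, 110 pericyte-like, 90 chondrocyte-like, 47 mesothelial-like, 24 epithelial-like and 13 lymphatic-like cells. Exactly 1 hashtag was found in 90.7% of the endothelial-like cells, against 10.4% of the smooth muscle-like cells. Levels pooled over all cells of a type are therefore 1 sample, given with exact Poisson 95% intervals that cover counting error only, while tests used the sums of the hashtagged cells of each animal. The 12 smooth muscle markers summed to 46723 to 48760 CPM (UMIs per 1000000 UMIs of the sum) over the 3 animals in smooth muscle-like cells. Chondrocyte-like cells carried 2581 CPM of chondrocyte markers beside 35537 CPM of fibroblast markers, and pericyte-like cells carried 6303 CPM of pericyte markers beside 37929 CPM of smooth muscle and 4943 CPM of endothelial markers. Counts come from the 3′ ends of transcripts and are not divided by length, so levels are compared between cell types within a gene.

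Promoter sequence is shown for 4 members described further on, Isl1 and Hoxd8 for the endothelial-like populations, Tbx20 for chondrocyte-like cells and Nkx2-5 for the smooth muscle-like clusters, as the 250 bases before the annotated start, read 5′ to 3′ on the gene's strand. The RefSeq table used has a promoter of this kind for 30 of the 54 members on build GRCm38.p6. Isl1 lies at chr13:116309689-116309938 on the minus strand, Tbx20 at chr9:24774304-24774553 on the minus strand, Nkx2-5 at chr17:26841566-26841815 on the minus strand and Hoxd8 at chr2:74704365-74704614 on the plus strand. The Nkx2-5 stretch lies inside that gene's annotated span, chr17:26838664-26844988. It therefore stands before an internal start and not before the outer end of the gene, and its letters describe that internal stretch only. Capitals mark GATAA, the core motif read by Gata factors.
Isl1: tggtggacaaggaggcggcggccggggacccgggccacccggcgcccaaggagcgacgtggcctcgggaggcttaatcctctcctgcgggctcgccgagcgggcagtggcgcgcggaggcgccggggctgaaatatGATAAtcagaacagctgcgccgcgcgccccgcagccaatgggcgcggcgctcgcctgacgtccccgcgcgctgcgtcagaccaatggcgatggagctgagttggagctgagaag
Tbx20: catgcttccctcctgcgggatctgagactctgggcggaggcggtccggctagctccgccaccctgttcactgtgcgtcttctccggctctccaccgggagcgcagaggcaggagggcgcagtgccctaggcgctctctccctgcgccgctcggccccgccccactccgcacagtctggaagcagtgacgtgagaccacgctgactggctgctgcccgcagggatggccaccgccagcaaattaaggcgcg
Nkx2-5: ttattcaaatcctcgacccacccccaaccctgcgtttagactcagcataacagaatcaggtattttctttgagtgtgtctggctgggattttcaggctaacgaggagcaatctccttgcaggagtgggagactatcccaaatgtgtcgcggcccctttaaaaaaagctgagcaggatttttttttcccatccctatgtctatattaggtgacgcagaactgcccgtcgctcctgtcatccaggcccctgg
Hoxd8: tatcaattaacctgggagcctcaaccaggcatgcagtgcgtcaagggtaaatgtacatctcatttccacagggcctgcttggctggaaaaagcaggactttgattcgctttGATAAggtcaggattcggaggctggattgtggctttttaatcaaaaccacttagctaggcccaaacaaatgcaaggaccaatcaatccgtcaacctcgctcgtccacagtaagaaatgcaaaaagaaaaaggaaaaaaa
GATAA was searched on both strands and was found once in the Isl1 stretch and once in the Hoxd8 stretch, and not in the others, while 22.6% of all 32851 promoters of this length hold it. The T-box motif AGGTGT (11.8% of promoters), the motif TGATNNAT for Hox proteins with their partners (7.68%) and TATAAA (12.4%) were absent from the 4 stretches on either strand. The Isl1 and Tbx20 stretches held 71.2% and 68.8% G and C, and those of Nkx2-5 and Hoxd8 held 49.2% and 44.4%. A motif match is a description of the letters and not of binding.

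Of the 54 members, 10 had no UMI in any barcode, namely Hoxa11, Hoxa13, Hoxb13, Hoxc10, Hoxc11, Hoxc12, Hoxc13, Hoxd1, Hoxd12 and Hoxd13. Another 3, Hoxb1, Hoxc9 and Hoxd10, had 1 to 3 UMIs in all barcodes and none in a named type. A further 9 had 1 to 15 UMIs in the named types, which were Hoxa6, Hoxa9, Hoxa10, Hoxb9, Hoxc5, Hoxc6, Hoxc8, Hoxd3 and Hoxd11. The remaining 32, 17 of them Hox genes, had at least 20 UMIs, up to 7599 for Gata6 and 6889 for Foxc1. Named types held 10593 UMIs of Hox genes and 28601 UMIs of the 15 cardiac and outflow tract factors. Transcripts of 10 Hox genes overlap a neighbour's span (Hoxa3, Hoxa4, Hoxa5, Hoxa6, Hoxb3, Hoxb4, Hoxd3, Hoxd4, Hoxd10 and Hoxd11), and how the counting split shared reads is uncertain there.

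Hox transcripts of the aortic wall came mainly from low-numbered paralogs of HoxA and HoxB. Smooth muscle-like cells held 7716 Hox UMIs, or 137 CPM, of which paralogs 1 to 4 made up 82.3% (exact binomial 95% interval 81.5 to 83.2%). Paralogs 5 to 8 made up 17.6% there and paralogs 9 to 13 gave 2 UMIs. HoxB genes gave 61.8% and HoxA genes 37.5% of the Hox UMIs of smooth muscle-like cells, while HoxC genes gave 5 UMIs and HoxD genes 0.622%. Fibroblast-like cells had 77.9% in paralogs 1 to 4 and 21.7% (19.6 to 23.9%) in paralogs 5 to 8 of 1464 Hox UMIs.

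Endothelial-like cells had a more posterior make-up. Paralogs 5 to 8 gave 46.9% (43.7 to 50.2%) of their 923 Hox UMIs, paralogs 9 to 13 gave 44 UMIs or 4.77%, and HoxD genes gave 22.2%. Among the animals of 81, 84 and 88 weeks, paralogs 5 to 8 gave 42.6%, 52.4% and 46.9% in endothelial-like cells, 12.96%, 18.2% and 22.6% in fibroblast-like cells, and 18.5%, 17.4% and 19.4% in smooth muscle-like cells. The HoxD share was 25.6%, 23.8% and 19.1% in endothelial-like cells, against 0%, 0.645% and 0.615% in smooth muscle-like cells. Endothelial-like cells were above smooth muscle-like cells in all 3 animals for both shares, and the ranges did not overlap. No test of these shares was made.

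**Figure D1:**
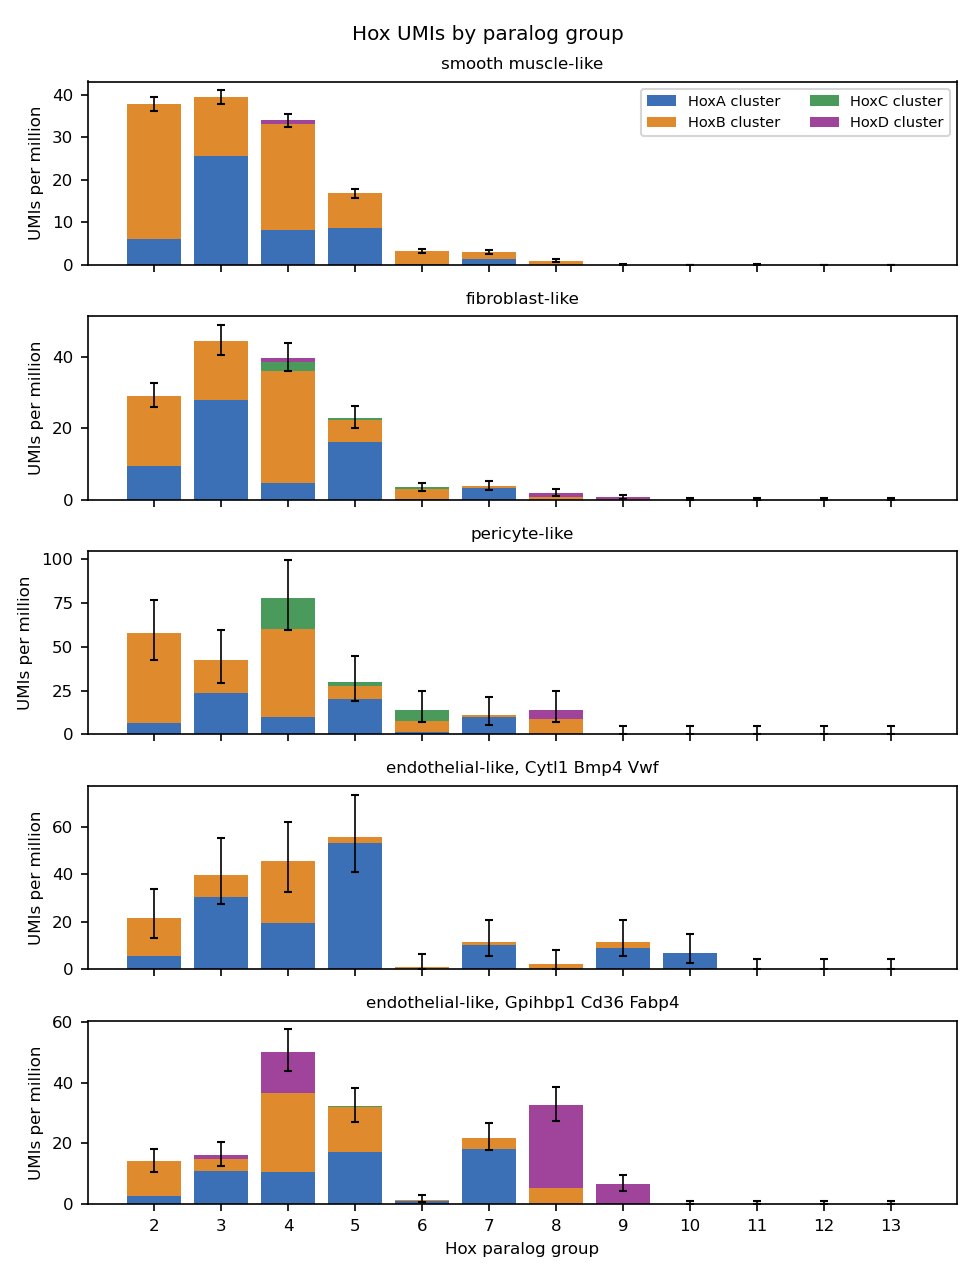
Hox level (CPM, y axis, from 0) by paralog group 2 to 13 (x axis) in cells pooled within each population, as bars stacked by Hox cluster with exact Poisson 95% intervals of the total. Paralog groups 2 to 5 fill the smooth muscle-like panel, HoxC appears in the pericyte-like panel and HoxD (27.4% of Hox UMIs) in the Gpihbp1 endothelial-like panel. Paralog group 9 appears in both endothelial-like panels and group 10 in the Cytl1 one.

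The individual Hox genes showed which ones carried this. Hoxb2, a hindbrain-level gene, was pooled at 51.5 CPM in pericyte-like, 31.7 CPM in smooth muscle-like, 19.8 CPM in fibroblast-like and 12.2 CPM in endothelial-like cells. Hoxb4, in the same cluster, was at 50.2 CPM in pericyte-like, 31.5 CPM in fibroblast-like, 26.0 CPM in endothelial-like cells and 25.0 CPM among smooth muscle-like ones, so the last 3 types held it at similar levels. Hoxd8 instead was at 27.4 CPM (115 UMIs) in the endothelial-like cells led by Gpihbp1, Cd36 and Fabp4 and at 0.0354 CPM (2 UMIs) in smooth muscle-like cells. Hoxd9 was at 6.66 CPM (28 UMIs) in the same endothelial-like cells and at 0.504 CPM in fibroblast-like cells. The 13 lymphatic-like cells held 31 Hox UMIs, 67.7% of them from HoxD, among them 8 UMIs of Hoxd8, 7 of Hoxd9 and 5 of Hoxd4.

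A few Hox genes had their highest level in small populations. Hoxc4 gave 14 UMIs in pericyte-like cells, 17.6 CPM (9.61 to 29.5), all in cells without a hashtag, against 2.42 CPM in fibroblast-like cells and 0.0177 CPM (1 UMI) in smooth muscle-like ones. HoxC genes as a whole gave 10.6% of the 198 Hox UMIs of pericyte-like cells. Hoxa10 was found in the named types only in the endothelial-like cells led by Cytl1, Bmp4 and Vwf, with 6 UMIs, and Hoxa9 gave 8 UMIs there.

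The other Hox genes with at least 20 UMIs differed in which of the 3 large types held most of them. Hoxa3 was at 27.9 CPM in fibroblast-like, 25.6 CPM in smooth muscle-like and 14.4 CPM in endothelial-like cells. Hoxa2, which patterns the pharyngeal arches, was at 9.48, 6.09 and 3.15 CPM in the same order of types, and Hoxb3 was at 16.7, 13.7 and 4.92 CPM. Hoxa2, Hoxa3 and Hoxb3 were thus lowest in endothelial-like cells, but other anterior genes were not. Hoxa4 had its highest pooled level among the named types in endothelial-like cells, at 11.99 CPM. Hoxd4 was called higher there than in smooth muscle-like cells, as given further on. Hoxa7 was at 16.7 CPM in endothelial-like, 3.23 CPM in fibroblast-like cells and 1.35 CPM in smooth muscle-like ones, and Hoxb8 was at 4.72, 0.706 and 0.921 CPM in that order. Hoxb6 had the reverse order, with 0.590 CPM in endothelial-like, 2.82 CPM in fibroblast-like cells and 3.10 CPM in smooth muscle-like ones. Hoxb7 lay at 3.34 CPM or below in these types.

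Foxc1 and Foxc2 had levels of 107 and 34.5 CPM in smooth muscle-like cells, 102 and 31.0 CPM in chondrocyte-like cells, 50.1 and 12.6 CPM in endothelial-like cells, and 40.9 and 19.0 CPM in fibroblast-like cells. Isl1 was not found in pericyte-like, lymphatic-like or macrophage-like cells. Nkx2-5 was found in 3 types, with 4 UMIs in chondrocyte-like cells, 121 among smooth muscle-like and 5 among fibroblast-like cells.

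The cardiac and outflow tract factors ranged widely between cell types, with different ones high in chondrocyte-like, pericyte-like and mesothelial-like cells. Tbx20, a T-box factor of heart valves and myocardium, was pooled at 911 CPM (735 UMIs, interval 846 to 979) in chondrocyte-like cells, against 18.3 CPM in smooth muscle-like and 12.9 CPM in fibroblast-like cells. The hashtagged chondrocyte-like cells were few, with 62 UMIs of Tbx20 in 4 cells, 40 in 7 cells and 35 in 3 cells of the animals of 81, 84 and 88 weeks, or 1630, 604 and 1250 CPM. Tbx20 was thus high in the chondrocyte-like cells of each animal, and at 887 CPM in those without a hashtag. Hand2, a basic helix-loop-helix factor of the outflow tract, and Gata4, a zinc finger factor of heart and valve formation, were also highest there among the named types, at 234 CPM and 68.2 CPM (51.4 to 88.7).

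Pericyte-like cells stood out for Tbx2 and Tbx5, T-box factors that act in chamber formation and boundaries of the embryonic heart. Tbx2 was pooled at 154 CPM (128 to 184) in pericyte-like cells, against 9.99 CPM in fibroblast-like cells and 8.11 CPM in smooth muscle-like ones. By animal Tbx2 was at 0, 232 and 41.4 CPM in pericyte-like cells of 81, 84 and 88 weeks, and at 170 CPM in those without a hashtag. Tbx5 was pooled at 126 CPM (102 to 153) in pericyte-like cells, and at 25.9, 149 and 165 CPM by animal, against 7.36 CPM in fibroblast-like cells and 2.16 CPM in smooth muscle-like ones. The values by animal rest on 8, 9 and 3 pericyte-like cells. Tbx5 was thus above the fibroblast-like pool in all 3 animals, and Tbx2 was not found in that of 81 weeks. In cells with a mitochondrial share under 10%, pericyte-like cells held Tbx2 at 101 CPM and Tbx5 at 63.5 CPM.

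Mesothelial-like cells, which line the outer surface, had the highest pooled levels of Tbx18 and Gata5, at 132 CPM (72 UMIs) and 40.3 CPM (22 UMIs). Gata5 was at 50.9 CPM in the hashtagged mesothelial-like cells and at 7.53 CPM (1 UMI) in those without a hashtag. Tbx18 was at 178, 105 and 234 CPM in the mesothelial-like cells of 81, 84 and 88 weeks and at 45.2 CPM in those without a hashtag, against 43.0 CPM in the smooth muscle-like pool. Gata6 was at 165, 158 and 167 CPM in the same 3 sets. Mesothelial-like cells also held 530 CPM of cardiomyocyte markers, with Myh6, Nppa, Ttn and Sln at 0, and their part in these levels was not tested. Tbx1 gave 31 UMIs in the 24 epithelial-like cells, 36.8 CPM, and 9 UMIs in the lymphatic-like cells. Hand1 was at or below 1.83 CPM in every named type. Free RNA in droplets can give UMIs to any cell, and its part in these levels was not tested. T cell-like cells held 3.44 CPM of Gata6, 5.00 CPM of Foxc1 and 13.2 CPM of all Hox genes together, with Hoxa7 giving 5.00 CPM of the latter.

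**Figure D2:**
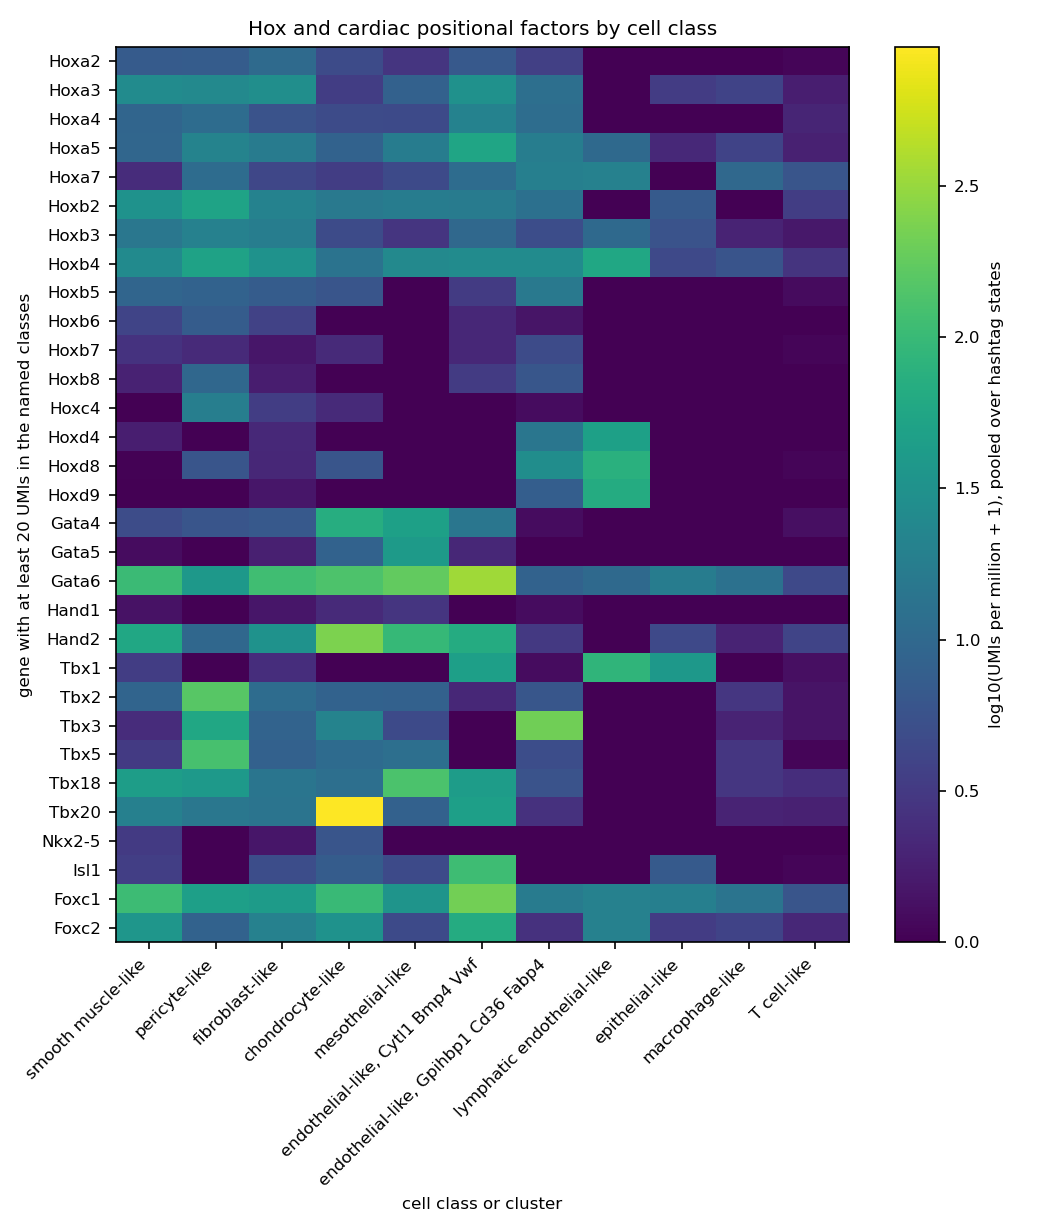
Pooled level, coloured as log10 of CPM plus 1, of 31 members with at least 20 UMIs (rows) in each named cell type, with the endothelial-like cells split in 2 (columns). Tbx20 in chondrocyte-like cells at 911 CPM, Tbx2 at 154 CPM and Tbx5 at 126 CPM in pericyte-like cells, Tbx3 in Gpihbp1 endothelial-like cells and Hoxd8 in those and in lymphatic-like cells stand out in their rows.

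The first comparison set smooth muscle-like cells against fibroblast-like cells, with edgeR's quasi-likelihood test on the sums of the 3 animals, the animal as a block and Benjamini-Hochberg adjustment over all genes. A gene was called with an adjusted p under 0.05 and a log2 fold change of at least 1 in size. Of the 54 members 18 passed the filter on low counts, and 3 of them were higher and 2 lower, beside 11.0% and 14.1% of all 10216 genes tested, or 25.1% in either direction. A member that passed the filter only through the type or population where it is high had to differ. These counts, and those of the comparisons below, therefore describe and support nothing further. The median log2 difference was 0.09 for the members and 0.00 for all genes tested. The count of 5 called members was 3 with DESeq2, which tested the same 18. It was 3 of 13 tested without the animal as a block, where the other 2 called members fell below the filter on low counts. It was 3 of 9 without cells holding T cell RNA and 2 of 3 with a hashtag count at least 2 times its cutoff. Of the 5, 2 and 1 kept the call in these last 2 fits, and Hand2 was newly called in both.

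Genes called higher in smooth muscle-like cells were Tbx18, Foxc1 and Foxc2. Tbx18 had 43.8, 44.5 and 36.7 CPM in smooth muscle-like cells of 81, 84 and 88 weeks, against 16.7, 11.3 and 12.9 CPM in fibroblast-like cells, or 1.88 ± 0.28 as log2 fold change with its SE (adjusted p = 7e-06). Foxc1 had 99.7, 111 and 110 CPM in smooth muscle-like cells, against 41.8, 47.3 and 54.2 CPM in fibroblast-like cells (log2 fold change 1.35 ± 0.17, adjusted p = 5.2e-07). Foxc2, its paralog, had 34.0, 29.7 and 32.4 CPM against 5.58, 17.5 and 12.9 CPM in fibroblast-like cells (1.38 ± 0.31, adjusted p = 0.00093). The groups did not overlap for any of the 3 genes.

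Tbx3 and Tbx5 were called lower. Tbx5 had 2.43, 3.30 and 0.427 CPM in smooth muscle-like cells, against 5.58, 12.3 and 7.74 CPM in fibroblast-like cells (log2 fold change -1.87 ± 0.67, adjusted p = 0.029). Tbx3, a repressor related to Tbx2, had 2.43, 1.65 and 0.427 CPM, against 8.37, 8.22 and 5.16 CPM in fibroblast-like cells (-2.08 ± 0.76, adjusted p = 0.032). Both were low in either type. All 8 Hox genes tested missed the call, with log2 fold changes between -0.39 and 0.82, the upper end being Hoxb2 with an adjusted p of 0.021. Gata6 was at 111, 95.6 and 101 CPM in smooth muscle-like cells and 131, 103 and 116 CPM in fibroblast-like cells (log2 fold change 0.01 ± 0.14). Hand2 was at 61.4, 59.4 and 53.8 CPM in smooth muscle-like cells, against 27.9, 51.4 and 18.1 CPM in fibroblast-like cells, a log2 fold change of 0.85 below the size needed. Tbx20 (0.65), Tbx2 (-0.51) and Gata4 (-0.52) were not called either.

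The second comparison set endothelial-like cells against smooth muscle-like cells. Here 20 members passed the filter on low counts, 7 were higher and 7 lower, beside 17.2% and 17.1% of all 10556 genes tested. Hox genes moved both ways, with 4 higher (Hoxa5, Hoxa7, Hoxd4 and Hoxd8) and 2 lower (Hoxb2 and Hoxb3). Hoxa7, Hoxd4 and Hoxd8 were near 0 in smooth muscle-like cells and passed the filter through endothelial-like cells, so they could only be called higher. Hoxb6, lower in the endothelial-like pool, did not pass the filter. The paralog numbers of the called genes therefore describe and support nothing further. The median log2 difference was -0.40 for the members and 0.01 for all genes tested.

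Hoxd8 had 22.6, 22.9 and 23.7 CPM in endothelial-like cells of 81, 84 and 88 weeks, against no UMI in the smooth muscle-like cells of each animal, at least 49.4-fold higher when the floor of 3 counts over the hashtagged cells stands for 0 (adjusted p = 1.1e-07). Hoxd4 had 12.9, 12.5 and 8.29 CPM in endothelial-like cells, against 0, 0.824 and 0.854 CPM (log2 fold change 3.94 ± 0.58, adjusted p = 2.9e-05). Hoxa7 had 8.89, 21.3 and 17.2 CPM, against 0.608, 1.65 and 1.28 CPM in smooth muscle-like cells (3.58 ± 0.40, adjusted p = 1.5e-06). These 3 genes were near 0 in smooth muscle-like cells of all 3 animals. Hoxa5 had 24.2, 19.1 and 27.8 CPM in endothelial-like cells, against 10.9, 8.66 and 7.26 CPM in smooth muscle-like cells (1.33 ± 0.25, adjusted p = 0.00034). On the lower side, Hoxb2 had 17.0, 7.64 and 11.8 CPM, against 31.6, 31.7 and 28.6 CPM (-1.48 ± 0.24, adjusted p = 8.6e-05), and Hoxb3 7.27, 2.73 and 5.33 CPM, against 17.6, 13.2 and 12.4 CPM in smooth muscle-like cells (-1.61, adjusted p = 0.0005). The groups did not overlap for any of the 6. Hoxb4 was not called, at 29.1, 23.5 and 27.2 CPM in the endothelial-like sums, against 21.9, 21.8 and 31.2 CPM in the smooth muscle-like sums, and its log2 fold change of -0.01 ± 0.19 was within its SE.

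The cardiac factors split 3 higher and 5 lower in endothelial-like cells. Tbx3 had 80.8, 235 and 182 CPM, against 2.43, 1.65 and 0.427 CPM in smooth muscle-like cells (log2 fold change 6.80 ± 0.28, adjusted p = 1e-11). Isl1, the LIM homeodomain factor of second heart field progenitors, had 8.89, 11.5 and 34.9 CPM in endothelial-like cells, against 2.43, 1.65 and 2.99 CPM (2.89, adjusted p = 6e-06). Tbx1, the T-box factor of the pharyngeal arches and outflow tract, had 1.62, 7.09 and 14.8 CPM, against 1.22, 2.47 and 1.71 CPM (2.00 ± 0.52, adjusted p = 0.0039), and its groups overlapped. Foxc1 was called lower at 41.2, 39.8 and 62.8 CPM in endothelial-like cells, against 99.7, 111 and 110 CPM in smooth muscle-like cells (-1.25 ± 0.15, adjusted p = 2.3e-06). Hand2 was called lower at 2.42, 16.4 and 7.70 CPM, against 61.4, 59.4 and 53.8 CPM (-2.70, adjusted p = 7.1e-07), together with Tbx18 (-1.96), Foxc2 (-1.41) and Tbx20 (-1.04). The 89 endothelial-like cells without a hashtag did not show this for Hand2. They held it at 64.3 CPM (21 UMIs), against 57.0 CPM in smooth muscle-like cells without a hashtag. Foxc1 was at 180, 243 and 198 CPM in the endothelial-like cells led by Cytl1, Bmp4 and Vwf. Tbx20 was at 56.0, 77.7 and 27.6 CPM there, against 17.0, 18.1 and 18.4 CPM in smooth muscle-like cells. Both were above the smooth muscle-like value in each animal, and Hand2, Tbx18 and Foxc2 in some animals only. These Cytl1 cells were not tested against smooth muscle-like cells, and most endothelial-like cells were of the Gpihbp1 population. Gata6 missed the size needed (-0.85, adjusted p = 0.0038), and its 107.8 CPM in the endothelial-like cells of 88 weeks lay above the smooth muscle-like value of that animal. Tbx2 (-0.79), Hoxa3 (-0.85), Hoxa4 (0.61) and Hoxb5 (0.99, adjusted p = 0.021) were not called either.

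Fibroblast-like cells against endothelial-like cells share their samples with the comparisons above, and their values are given beside them. Of 19 members tested 2 were called higher and 5 lower in fibroblast-like cells, beside 16.2% and 13.6% of all 9861 genes tested. Hand2, with the values given above, and Hoxa3 were higher, Hoxa3 at 47.4, 29.8 and 31.0 CPM in fibroblast-like cells, against 12.9, 11.5 and 17.2 CPM in endothelial-like cells (log2 fold change 1.31 ± 0.30, adjusted p = 0.003). Without a hashtag the order was the reverse for Hand2, with 29.3 CPM in fibroblast-like cells and 64.3 CPM in endothelial-like cells. Tbx3 (-4.65 ± 0.28, adjusted p = 2.5e-08), Hoxd8 (-4.25 ± 0.62, adjusted p = 0.0001), Hoxa7 (-2.59, adjusted p = 0.0015), Hoxd4 (-1.9995, adjusted p = 0.015) and Isl1 (-1.64, adjusted p = 0.027) were lower. Another 12 were not called. They ranged from Hoxb5 (-1.28), Hoxa4 (-1.25) and Hoxa5 (-0.89) through Foxc2 (-0.10), Foxc1 (0.00), Hoxb4 (0.19), Tbx18 (0.36), Tbx20 (0.46), Hoxb2 (0.81) and Gata6 (0.97, adjusted p = 0.0073) to Hoxb3 (1.32) and Tbx2 (1.39). Leaving out cells with T cell RNA, or asking for a hashtag count at least 2 times its cutoff, left 1 called member in place of 7, with 4 and 8 members tested, and leaving out the animal of 84 weeks left 4 of 11 tested. Of the 7 called members, 1, 4 and 4 still passed the filter in these fits, and 1, 1 and 4 kept the call. T cell markers summed to 184 to 1394 CPM in the fibroblast-like sums of the 3 animals and to 171 to 241 CPM in the endothelial-like sums, against 83.9 to 182 CPM in the smooth muscle-like sums, and their part in the results was not tested. Genes induced by stress during dissociation summed to 1920 to 2140 CPM in fibroblast-like, 3636 to 4548 CPM in endothelial-like sums and 2894 to 3157 CPM among smooth muscle-like ones, which was not tested either.

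**Figure D3:**
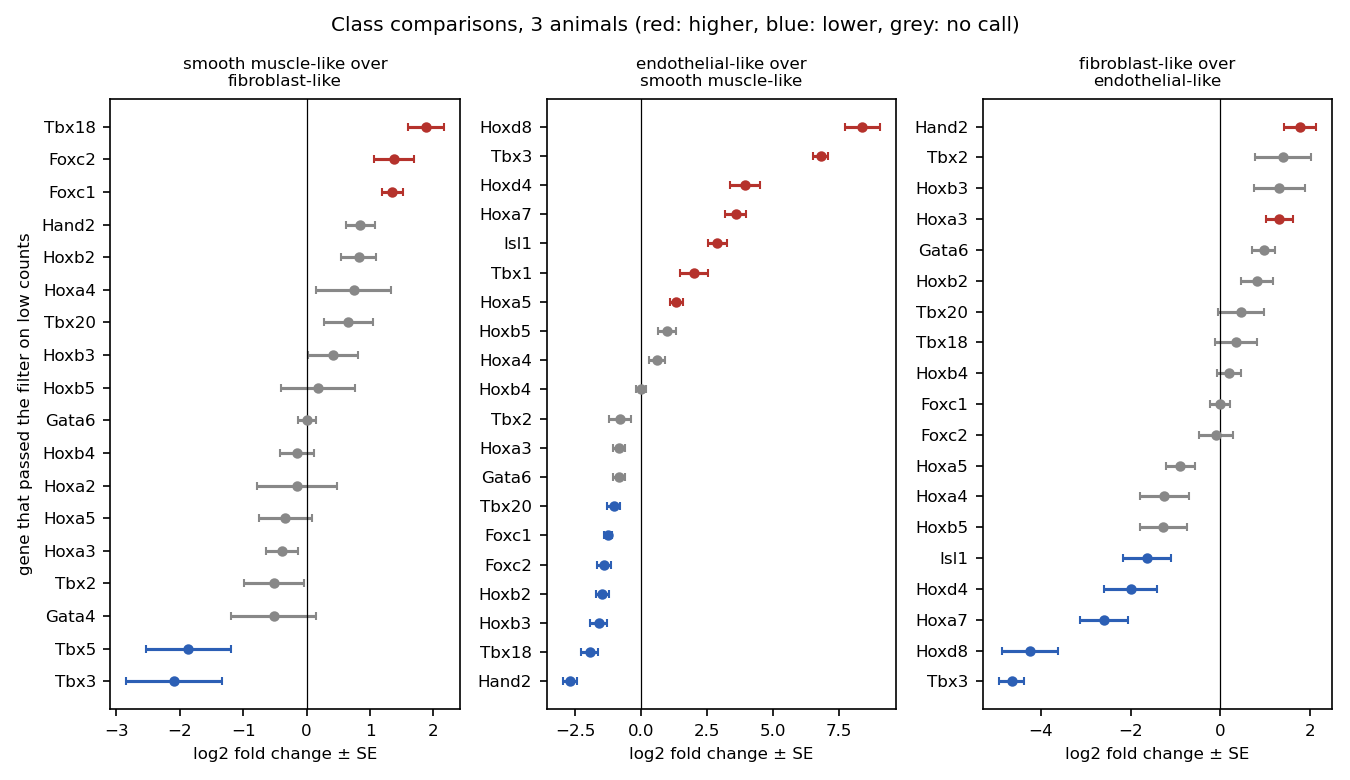
Log2 fold change with SE (x axis) of each member that passed the filter on low counts (rows) in the 3 comparisons between cell types, over 3 animals, with red for called higher, blue for called lower and grey for not called. Tbx3 lies at 6.80 and Hand2 at -2.70 for endothelial-like against smooth muscle-like cells, and the point of Hoxd8 there rests on a group without UMIs and is no measure of size.

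Within the endothelial-like cells, 2 populations carried different positional genes. The 86 cells led by Cytl1, Bmp4 and Vwf were set against the 871 cells led by Gpihbp1, Cd36 and Fabp4, genes of lipid uptake in capillaries. The 86 cells were separated by splitting a cluster that also held the lymphatic-like cells. Of 18 members tested 10 were called higher and 4 lower in the Cytl1 population, beside 11.7% and 10.9% of all 8323 genes tested. The median log2 difference was 1.47 for these members and -0.02 for all genes tested. Among the cardiac factors 8 of the 9 tested were higher, while 2 Hox genes were higher and 3 lower. Isl1, Tbx1, Foxc2, Hand2 and Tbx20 were at or near 0 in the Gpihbp1 population, and Tbx3, Hoxd8 and Hoxd4 at 0 in the Cytl1 population. They passed the filter through the other population and had to differ, so the counts and the median describe and support nothing further.

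Isl1 had 68.4, 102 and 136 CPM in the Cytl1 population of 81, 84 and 88 weeks and no UMI in the Gpihbp1 population of each animal, at least 149.7-fold higher against the floor of 3 counts over the hashtagged cells (adjusted p = 8.4e-08). Gata6 had 242, 306 and 400 CPM in the Cytl1 population, against 11.1, 5.53 and 6.38 CPM in the Gpihbp1 population (log2 fold change 5.36 ± 0.29, adjusted p = 1.9e-09). Foxc1 had 180, 243 and 198 CPM, against 20.4, 14.1 and 15.96 CPM (3.61 ± 0.25, adjusted p = 3.5e-08). All 3 genes were separated widely in each animal. Foxc2 (5.37), Hand2 (4.79), Tbx20 (4.71), Tbx1 (6.74) and Tbx18 (2.85) were also called higher. The value of Tbx1 rests on almost no UMIs in the Gpihbp1 population and is no measure of size. Of 8 finer divisions of the pooled endothelial-like cells, 6 held no UMI of Tbx1, and its highest level was 44.9 CPM in that of the Cytl1 cells. Hand2 illustrates how uneven these were, with 12.4, 136 and 20.7 CPM in the Cytl1 population, against 0.928, 1.23 and 3.19 CPM in the Gpihbp1 population. Without a hashtag it was at 236 CPM (19 UMIs) and 8.12 CPM (2 UMIs). Tbx3 went the other way, with no UMI in the Cytl1 population of any animal and 92.8, 264 and 245 CPM in the Gpihbp1 population, at least 56.5-fold lower (adjusted p = 1.3e-07).

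Among Hox genes, Hoxd8 and Hoxd4 had no UMI in the Cytl1 population of any animal. In the Gpihbp1 population Hoxd8 had 26.0, 25.8 and 31.9 CPM, so it was at least 7.43-fold lower in the Cytl1 population (adjusted p = 0.00032), and Hoxd4 had 14.9, 14.1 and 11.2 CPM, at least 3.58-fold lower (adjusted p = 0.0088). Hoxb5 was lower at 6.22, 0 and 2.30 CPM, against 15.8, 14.7 and 15.2 CPM (log2 fold change -2.56 ± 0.81, adjusted p = 0.026). Hoxa5 was higher in the Cytl1 population at 49.7, 53.4 and 57.5 CPM, against 20.4, 14.7 and 17.6 CPM (1.60 ± 0.32, adjusted p = 0.0013). HoxA genes gave 69.7% of the 175 Hox UMIs of the pooled Cytl1 population and HoxD genes gave 0%. In the Gpihbp1 population HoxD gave 28.4%, 26.5% and 28.5% by animal. Hoxa3 was called higher (1.34 ± 0.46, adjusted p = 0.04) but in 2 of 3 animals, and its groups overlapped.

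Hoxb4 (-0.02), Hoxb2 (0.21), Hoxa7 (-0.72) and Hoxa4 (0.93) were not called. Without the filter on low counts Gata4 was called higher, with 3, 4 and 0 UMIs in the Cytl1 population and 0, 0 and 1 in the Gpihbp1 population (adjusted p = 0.043). Fibroblast markers summed to 1324 to 2602 CPM in the Cytl1 population and 275 to 408 CPM in the Gpihbp1 population, and mesothelial markers to 49.7 to 182 CPM and 5.58 to 9.28 CPM. Endothelial markers summed to 9309 CPM in the pooled Cytl1 population, with all 12 detected, and to 46431 CPM in the Gpihbp1 population. The part of these markers in the result was not tested. The count of 14 called members fell to 9 without the animal as a block, to 8 without the animal of 84 weeks, to 8 without that of 88 weeks and to 3 without cells holding T cell RNA. Of the 14, 9, 9, 8 and 4 still passed the filter in these fits, so 2 calls were lost among members that could be tested.

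**Figure D4:**
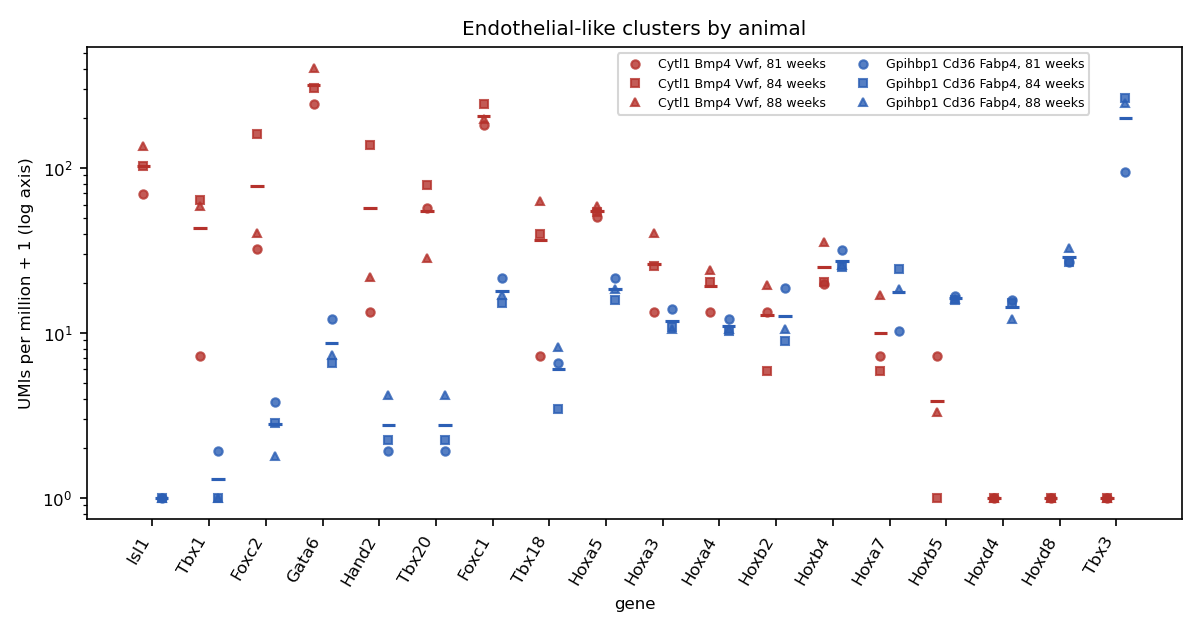
CPM plus 1 (log axis) of each tested member in the endothelial-like cells led by Cytl1, Bmp4 and Vwf (red, left of each pair) and by Gpihbp1, Cd36 and Fabp4 (blue, right), with 1 point per animal of 81, 84 and 88 weeks and a dash for their mean. Isl1 and Gata6 lie higher in the Cytl1 population in all 3 animals, while Tbx3, Hoxd8 and Hoxd4 lie at no UMI there.

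Subdivision of the Gpihbp1 population left Tbx3 high throughout, at 139 to 298 CPM in 5 of its 7 divisions. It was lower in the 46 cells led by Rgs5 and Notch3, at 72.5 CPM, and in the 85 cells led by Lrg1 and Ackr1, genes of venules, at 61.8 CPM. Hoxd8 lay between 20.4 and 47.5 CPM and Gata6 between 2.31 and 24.4 CPM over all 7. The cells led by Rgs5 and Notch3, genes also known from pericytes, held Tbx5 at 51.8 CPM and Tbx18 at 31.1 CPM as well.

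Within smooth muscle-like cells, the 1187 cells led by Tnnt2, Actc1 and Des were set against the 1722 cells led by Mylk4 and Npnt. In pooled levels, which are 1 sample each, several cardiac factors, among them Nkx2-5, Tbx5 and Gata4, were higher in the Tnnt2 population, and Tbx1, Foxc1, Foxc2 and HoxB genes 5 to 8 were lower, and the test over animals called 1 member. Of 9 members tested none was called higher and 1 lower, beside 0.961% and 0.443% of all 6767 genes tested, or 1.40% in either direction, and 2 had an unadjusted p under 0.05. That member, Foxc2, had 23.7, 14.4 and 21.2 CPM in the Tnnt2 population, against 44.9, 41.9 and 36.5 CPM in the Mylk4 population (log2 fold change -1.08 ± 0.31, adjusted p = 0.034). The call was lost whichever animal was left out and with DESeq2, and Foxc2 could not be tested without cells holding T cell RNA.

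In the pools, Nkx2-5, the homeodomain factor of early cardiac cells, was at 8.53 CPM in the Tnnt2 population (107 UMIs) and 0.262 CPM in the Mylk4 population (5 UMIs), a ratio of 32.6 (13.6 to 103). Tbx5 was at 7.18 CPM (90 UMIs) and 0.837 CPM (16 UMIs), a ratio of 8.58 (5.00 to 15.6). Gata4 was at 11.96 CPM (150 UMIs) and 2.25 CPM (43 UMIs), a ratio of 5.32 (3.77 to 7.65). All 3 stood among the members with few UMIs, and in the hashtagged cells Nkx2-5 had 2, 0 and 3 UMIs in the Tnnt2 population and none in the Mylk4 population, with an adjusted p of 0.85 without the filter on low counts. Tbx5 had 4, 7 and 1 UMIs, against 0, 1 and 0 (adjusted p = 0.34), and Gata4 3, 11 and 3, against 0, 3 and 1 (adjusted p = 0.25). Both were higher in the Tnnt2 population of all 3 animals but not by the test. On the lower side, Tbx1 was pooled at 0.239 CPM (3 UMIs) in the Tnnt2 population, against 2.25 CPM (43 UMIs) in the Mylk4 population, and Foxc1 at 85.2 CPM, against 120 CPM.

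HoxB genes 5 to 8 were lower in the pooled Tnnt2 population. Hoxb5 was at 3.59 CPM (45 UMIs) in the Tnnt2 population, against 11.0 CPM (211 UMIs) in the Mylk4 population. Hoxb6 was at 0.558 CPM (7 UMIs), against 4.24 CPM (81 UMIs), and Hoxb7 at 0.319 CPM (4 UMIs), against 2.77 CPM (53 UMIs). Hoxb8 had no UMI in the Tnnt2 population and 35 in the Mylk4 population, at least 7.65-fold lower against the floor of 3 counts. Hoxa3, Hoxb2 and Hoxb4 had pooled ratios of 0.99, 0.89 and 0.92, all close to 1, and in the sums by animal their log2 fold changes were -0.55, 0.57 and 0.40, none of them called. The other members tested without a call were Gata6 (0.41), Tbx20 (0.42), Hand2 (0.11), Tbx18 (-0.23) and Foxc1 (-0.32). Paralogs 5 to 8 gave 11.2% (9.71 to 12.9%) of the Hox UMIs of the pooled Tnnt2 population and 20.6% (19.1 to 22.1%) of those of the Mylk4 population. By animal the shares were 18.5%, 5.43% and 16.4% in the Tnnt2 population, against 21.8%, 21.6% and 26.9% in the Mylk4 population, lower in all 3 animals. Hashtagged cells gave 0, 1 and 0 UMIs of Hoxb6 in the Tnnt2 population and 6, 4 and 4 in the Mylk4 population (adjusted p = 0.3 without the filter on low counts).

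Cell by cell, counts were sparse and are given as a description after thinning each cell to 5000 UMIs. A UMI of Hoxb5, Hoxb6, Hoxb7 or Hoxb8 was found in 2.01% (0.550 to 5.07%) of the 199 smooth muscle-like cells that held a UMI of Nkx2-5, Tbx5 or Gata4, and in 6.19% (5.49 to 6.95%) of the other 4361. Unthinned, the shares were 4.26% of 376 and 12.5% of 4184 cells. Within the Tnnt2 population itself they were 1.36% (0.165 to 4.83%) of 147 and 2.85% (1.90 to 4.09%) of 983 thinned cells. In the other smooth muscle-like cells they were 3.85% (0.469 to 13.2%) of 52 and 7.16% (6.32 to 8.09%) of 3378. The intervals overlapped in both, and 147 of the 199 cells lay in the Tnnt2 population. Cells are not replicates, and these intervals cover counting error only. Neutrophil markers summed to 250 CPM in the pooled Tnnt2 population, against 1.62 CPM in the Mylk4 population, and to 6623 CPM in its sum of 88 weeks. Stress genes summed to 2819 and 1951 CPM and cardiomyocyte markers to 86.8 and 102 CPM in the Tnnt2 and Mylk4 populations, and none of these was tested as a part of the result.

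**Figure D5:**
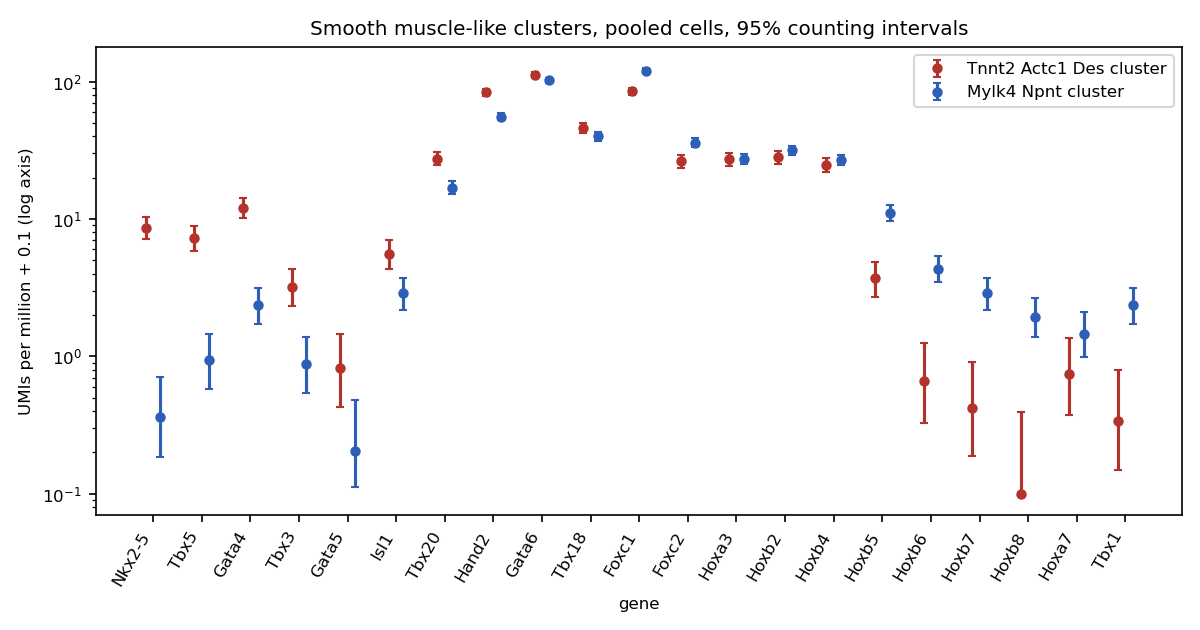
Pooled CPM plus 0.1 (log axis) with exact Poisson 95% intervals of members in the smooth muscle-like cells led by Tnnt2, Actc1 and Des (red, left of each pair) and by Mylk4 and Npnt (blue, right). Nkx2-5 has 8.53 CPM in the Tnnt2 population and 0.262 CPM in the Mylk4 population, and Hoxb6 has 0.558 CPM and 4.24 CPM.

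Fibroblast-like cells of a cluster chosen by the markers Dio2 and Fmod, whose leading genes were Cygb, Serpinf1 and Abca8a (903 cells), were set against those led by Pi16 and Clec3b (347 cells). The name Dio2 population tells only how the cluster was chosen. Over finer divisions of the fibroblast-like cells the mean log2 level of the marker set was uneven. It was 8.73 in a division of 158 cells, but 4.17 and 3.99 in divisions of 183 and 118 cells. Only 4 members passed the filter on low counts and none was called by edgeR, beside 3.64% higher and 3.75% lower of all 4802 genes tested, or 7.39% in either direction, with 2 members at an unadjusted p under 0.05 and none called by DESeq2. Gata6 had 164, 117 and 120 CPM in the Dio2 population, against 61.1, 73.5 and 104.8 CPM in the Pi16 population (log2 fold change 0.71 ± 0.29, adjusted p = 0.16), higher in 3 of 3 animals. Foxc1 had 45.1, 59.1 and 61.6 CPM, against 34.9, 22.4 and 31.4 CPM (1.01 ± 0.42, adjusted p = 0.16). Hand2 (0.32) and Hoxa3 (-0.32) were the other 2 tested. Tbx2 gave 95 UMIs in the pooled Dio2 population (14.1 CPM) and 4 in the Pi16 population (1.26 CPM). Finer divisions of the fibroblast-like cells differed more in pooled levels. Tbx20 was at 70.3 CPM and Gata4 at 30.1 CPM in 118 cells led by Hmcn2 and Tbx20, and Tbx2 at 98.0 CPM, Tbx3 at 84.0 CPM and Tbx5 at 42.02 CPM in a group of 34 cells. Tbx20 is among the leading genes there and is given as a description.

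Genes that work with the members or beside them were taken from lists of TALE cofactors, mesodermal and cardiac regulators, neural crest and mesenchyme regulators and long non-coding transcripts of the Hox clusters. Of all genes tested, 11.0% were higher and 14.1% lower in smooth muscle-like against fibroblast-like cells, and 17.2% and 17.1% in endothelial-like against smooth muscle-like cells. The shares were 16.2% and 13.6% in fibroblast-like against endothelial-like cells and 11.7% and 10.9% in the Cytl1 against the Gpihbp1 population. They were 3.64% and 3.75% in the Dio2 against the Pi16 population and 0.961% and 0.443% in the smooth muscle-like clusters. A listed gene that passed the filter only through the side where it is high had to differ. The counts for these lists therefore describe and support nothing further. TALE homeodomain proteins (the Meis, Pbx and Pknox genes) bind DNA together with Hox proteins. Of the 9 listed, 8 were tested in endothelial-like against smooth muscle-like cells, 4 were lower and none higher, and the list's median log2 difference was -0.61. Meis1 had 6.46, 4.36 and 5.92 CPM in endothelial-like cells, against 34.0, 35.4 and 31.2 CPM in smooth muscle-like cells (log2 fold change -2.68, adjusted p = 2.6e-07), and Meis3 had a log2 fold change of -2.13. In fibroblast-like against endothelial-like cells 4 of 7 were higher and none lower, while in smooth muscle-like against fibroblast-like cells none of 8 was called in either direction. In the Cytl1 against the Gpihbp1 population 3 of 6 were higher and 2 lower. Meis2 had 280, 272 and 296 CPM in the Cytl1 population, against 2.79, 6.76 and 9.57 CPM (5.36, adjusted p = 1.9e-09), and Pknox2 had 31.1, 38.8 and 23.0 CPM, against 0, 0.615 and 0 CPM. Pbx3 (-2.21) and Pknox1 (-1.12) were lower there. None of the 5 tested in the smooth muscle-like clusters and none of the 3 in the fibroblast-like clusters was called.

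The 20 mesodermal and cardiac regulators include factors known from other tissues of the trunk. In smooth muscle-like against fibroblast-like cells 1 of 11 tested was higher, the muscle factor Mef2c (log2 fold change 2.02), and 7 were lower, among them Meox2 (-6.59) and Foxd1 (-6.43). The smooth muscle-like sums of 81, 84 and 88 weeks held 0, 2 and 1 UMIs of Meox2 and 0, 0 and 1 of Foxd1. Fold changes against so few UMIs, here and below, are no measure of size. In endothelial-like against smooth muscle-like cells 7 of 12 were higher, among them Meox2 (8.18) and the endothelial factor Gata2 (7.02), and 3 were lower, among them Foxf1 (-3.39) and Nr2f1 (-1.52). Gata2 had 3, 2 and 0 UMIs in the smooth muscle-like sums. In fibroblast-like against endothelial-like cells 5 of 12 were higher and 5 lower. Tcf21, a fibroblast and epicardial factor, had 39.0, 52.4 and 43.9 CPM in fibroblast-like cells and no UMI in endothelial-like cells, Foxd1 was also higher (6.13), and Gata2 (-6.55) and Irx3 (-4.27) were lower. On the low side Foxd1 had 1, 0 and 0 UMIs in endothelial-like sums, and Gata2 had 0, 1 and 1 and Irx3 0, 2 and 1 in fibroblast-like sums. In the Cytl1 against the Gpihbp1 population 2 of 9 were higher, Gata3 (2.99) and Zfpm2 (2.51), and Zfpm2 encodes a cofactor of Gata proteins. Another 4 were lower, with Irx3 at no UMI in the Cytl1 population, against 29.7, 46.7 and 35.1 CPM in the Gpihbp1 population, and Meox2 at -3.64. In the Dio2 against the Pi16 fibroblast-like cells 5 of 7 were higher and none lower, beside 3.64% and 3.75% of all genes tested. There Foxd1 had 45.1, 10.6 and 47.9 CPM in the Dio2 population and no UMI in the hashtagged cells of the Pi16 population, which held 14 UMIs (5.28 CPM) in its cells without a hashtag, and Meox1 had a log2 fold change of 4.34 (adjusted p = 0.0013), with 0, 1 and 0 UMIs in the Pi16 sums. None of 3 was called in the smooth muscle-like clusters.

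Of 15 neural crest and mesenchyme regulators, 7 of 8 tested were lower and none higher in smooth muscle-like than in fibroblast-like cells, among them Snai1 (log2 fold change -4.51) and Twist2 (-3.75), which fibroblasts are also known to express. Snai1 had 0, 1 and 1 UMIs in the smooth muscle-like sums and Sox9, given below, 1, 1 and 0 in the endothelial-like sums, so their fold changes are no measure of size. In endothelial-like against smooth muscle-like cells 2 of 6 were higher, Snai2 (2.17) and Msx1 (2.06), and 3 were lower, with Prrx2 at no UMI in endothelial-like cells, against 10.9, 7.01 and 7.26 CPM, and Sox9 at -4.29. In fibroblast-like against endothelial-like cells 5 of 7 were higher and none lower, among them Prrx2, at 36.2, 52.4 and 31.0 CPM in fibroblast-like cells, and Sox9 (5.86). In the Cytl1 population Twist1 was higher at 62.2, 68.0 and 230 CPM, against 1.86, 4.30 and 3.19 CPM in the Gpihbp1 population (5.06), and Snai2 was lower (-2.93), with 4 tested. In the Dio2 fibroblast-like cells 1 of 5 was higher, Prrx2 (1.86), and in the smooth muscle-like clusters none of 2 was called.

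Long non-coding transcripts run within the Hox clusters, several of them antisense to Hox genes. Of 10 listed, 3 were tested and higher in smooth muscle-like than in fibroblast-like cells, among them Hoxb3os (log2 fold change 1.92) of HoxB and Hotairm1 (1.32) of HoxA. In endothelial-like against smooth muscle-like cells 1 of 4 was higher, Hoxd3os1, at 18.6, 9.82 and 11.3 CPM, against 0, 0.412 and 0 CPM (5.75), and 1 lower, Hoxaas2 (-1.62). All 3 tested were lower in fibroblast-like than in endothelial-like cells, among them Hoxd3os1, with no UMI in the hashtagged fibroblast-like cells and 4 in those without a hashtag, and Hoxb3os (-1.78). In the Cytl1 population Hoxd3os1 had no UMI, against 21.4, 11.1 and 15.2 CPM in the Gpihbp1 population, and Hoxaas2 was higher (2.80), with 4 tested. Hoxd3os1 thus had UMIs where its neighbours Hoxd4 and Hoxd8 did, in the Gpihbp1 population, and none in the Cytl1 population. None of the 3 tested in the smooth muscle-like clusters was called. Strand use in the counting is not given in the sources used here, so reads of an antisense RNA and of its Hox neighbour may not be told apart.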

How the data were processed

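The members and the gene lists were chosen with earlier results of these data known. The authors deposited raw UMI counts of genes and hashtags, made with Cell Ranger 6.0.1 per the file headers, and the submitters' processing notes also name Cell Ranger, Seurat 4.0.5 and the build mm10. Libraries are not kept apart in the counts, so depth is given over the pool. Hashtags were called here with HTODemux (Seurat 5.3.0, quantile 0.99), with cutoffs of 129, 765 and 266 UMIs for hashtags 1, 2 and 3, which a deposited reference table assigns to 81, 84 and 88 weeks. Barcodes with at least 500 genes, at least 1000 UMIs and under 15% mitochondrial UMIs were kept (11301), cells with several hashtags were removed, and the 731 highest Scrublet scores (6.47%) were removed as doublets, since its automatic threshold called 1. The 10084 cells left, 3971 of them with 1 hashtag and 6113 with none, were scaled to 10000 UMIs each and grouped by the Leiden method at resolution 0.8 (scanpy 1.11.5, igraph 0.11.9, 2000 variable genes, 30 components, 15 neighbours), without the members and the mitochondrial and ribosomal protein genes. Genes that vary with the members still shaped the clusters, so the grouping and a member's difference between clusters are linked. Names came from marker genes (mean log2 level at least 1.5 over the other clusters, with at least 3 markers at least 2-fold up on CPM plus 10). It was left unnamed where an unrelated type had at least 10 markers up, a rule set after the data were seen.

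UMIs were summed per hashtag and cell type with at least 10 cells, and compared with edgeR 4.0.16 (quasi-likelihood F test, TMM, filterByExpr, Benjamini-Hochberg adjustment over all genes, R 4.3.3). The animal was a block, since the cell types compared come from the same 3 animals. Every member is named but 1, which is not reported here, with the values of those with at least 20 UMIs and of all that passed the filter, and of other lists up to 2 called genes a direction with the largest fold change. Pooled values singled out within clusters and finer divisions were chosen after they were seen. DESeq2 1.42.0 was an alternative. On simulated counts for smooth muscle-like against fibroblast-like cells, 185 of 194 tested genes changed by 2 on the log2 scale were called, with 4 false calls among 9735 genes. For the endothelial-like clusters the same test called 171 of 194, with 6 false calls among 7873 genes. The changed genes were drawn only from those above a minimum count, with a fixed low dispersion and the same means in all animals. These rates therefore do not cover members with few UMIs or real differences between animals.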

Additional observations from a re-analysis of the deposited data

How the results depend on the processing

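Over the 41 calls of members, 331 of 353 values under the alternatives kept their direction and call, 22 kept the direction and lost the call, and none reversed; a member below the filter on low counts in an alternative gave no value there. With the genes of the other lists, 689 of 728 values over 85 calls kept both and none reversed. Of 47 comparisons of a member without a call, 16 were called in some alternative.

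The counts that follow include members not called in the comparisons above. For smooth muscle-like against fibroblast-like cells, 5 called members became 3 with DESeq2 and 3 with no replicate block. The count was 3 with cells holding T cell RNA left out, 2 with a hashtag count at least 2 times its cutoff and 4 to 5 without 1 animal. Of the 5, 2 kept the call without cells holding T cell RNA and 1 with the higher hashtag count, and Hand2 was newly called in both. For fibroblast-like against endothelial-like cells, 7 became 1 without cells holding T cell RNA, 1 with the higher hashtag count and 4 to 10 without 1 animal, with 4 without that of 84 weeks. For the endothelial-like clusters, 14 became 9 with no replicate block, 3 without cells holding T cell RNA and 8 to 13 without 1 animal. For the smooth muscle-like clusters, 1 became 0 with DESeq2, 0 without cells holding T cell RNA and 0 to 0 without 1 animal. In the comparisons between cell types and in the endothelial-like clusters, DESeq2 aside, most of the missing calls were of members that fell below the filter, and without the block every called member that still passed it kept its call. DESeq2 tested the same members, and Foxc2 of the smooth muscle-like clusters was still tested without each animal; the cause of these losses was not tested. Without the animal as a replicate block, the count went to 13 in place of 14 for endothelial-like against smooth muscle-like cells. It went to 6 in place of 7 for fibroblast-like against endothelial-like cells, where 4 of the 7 kept the call and Hoxa4 and Hoxb5 were newly called. The count stayed at 1 for the smooth muscle-like clusters and at 0 for the fibroblast-like clusters.

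The number of members at 5 CPM or more in some cell type was 32, and 28 to 34 under the alternatives. Hoxa9 is among these 32 and Nkx2-5 is not, unlike the 32 with at least 20 UMIs. Their highest type stayed the same for 29 with a mitochondrial share under 10%, 17 with doublets kept and 27 in cells with no hashtag. It did so for 22 without cells holding T cell RNA and 18 in cells with exactly 1 hashtag, and in both that type was still present for 25. The alternative with a cluster of smooth muscle and T cell markers added was chosen after seeing the data and gave 5 and 14 called members. Some alternatives gave no value for the smooth muscle-like and fibroblast-like clusters (cells with 1 hashtag alone, the higher hashtag count) or for the fibroblast-like clusters (cells holding T cell RNA left out). Few UMIs per animal limit what can be tested.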

Other observations

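Clusters that were given no name also held members. In 80 cells led by Tbata, Prss16 and Ccl25, genes known from thymic epithelium, Tbx3 was at 91.2 CPM (67 UMIs) and Isl1 at 85.7 CPM (63 UMIs). By animal Tbx3 was at 0, 69.9 and 151 CPM and Isl1 at 0, 99.5 and 70.1 CPM at 81, 84 and 88 weeks. In another cluster of 18 cells, Tbx1 gave 14 UMIs, or 55.2 CPM. A cluster of 46 cells with endothelial and T cell markers held Tbx3 at 210 CPM and Hoxd8 at 25.2 CPM, close to the named endothelial-like cells, and 263 cells with smooth muscle and T cell markers held Foxc1 at 101 CPM, Gata6 at 94.6 CPM and Hand2 at 55.4 CPM.

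Hox genes were also found in immune cells at low counts. Hoxa7 gave 9 UMIs in macrophage-like cells (8.89 CPM) and 45 UMIs in T cell-like cells (5.00 CPM), against 1.35 CPM in smooth muscle-like cells. Hoxa9 gave 6 UMIs in macrophage-like cells, or 5.93 CPM.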
